A study of Mus musculus with 6 samples.

Results

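NF-κB is a family of dimeric transcription factors that drive inflammatory genes, and many of its own inhibitors are among its target genes. The genes described here are the subunits of NF-κB and the inhibitors that are made in response to it. They were selected by gene symbol: the subunits Nfkb1, Nfkb2, Rel, Rela and Relb, the IκB proteins Nfkbia, Nfkbie and Nfkbiz, and the enzymes Tnfaip3 and Zc3h12a. Of these 10 genes, 9 carried a symbol on the array and were analysed among 24479 genes in all, while Nfkb1 was not analysed here.

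The levels come from liver sinusoidal endothelial cells (LSECs), the fenestrated endothelium that lines the liver sinusoids. Livers were perfused with collagenase, and LSECs were taken from a density gradient with magnetic CD146 beads. The study had 3 samples of Lyve-1-KO mice (B6.129S1-Lyve1tm1Lhua/J, a constitutive knockout on a C57BL/6 background) and 3 samples of wild-type C57BL/6J Ctrl mice, each a pool of the LSECs of 3 mice on 1 array. The methods name both littermates and purchased mice as controls, and which of them were used for the arrays is not given in the sources used here. They give an age range for the animal work in general, but neither the age nor the sex of the mice behind the arrays. For purchased mice, breeding and genotype cannot be told apart.

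Each gene has 1 log2 level on each array, and the authors had normalized these levels to the same distribution on every array (median 5.04, range 2.92 to 13.87). A difference of 1 on this scale is a doubling of the signal. Genes were compared with limma, which tests each gene with its own spread, drawn toward a common value estimated from all genes. The p was adjusted over all 24479 genes by Benjamini-Hochberg at a threshold of 0.05. Under this threshold 1 gene passed (0.00409% of all genes), and it was not one of the 9. The targeted gene Lyve1, the hyaluronan receptor, had levels of 12.85, 12.88 and 12.83 in the arrays labelled Lyve-1-KO and 12.78, 12.69 and 12.84 in the Ctrl arrays. Its signal was thus not lower under the Lyve-1-KO label (log2 fold change 0.08, limma adjusted p = 0.663), and whether its probes lie in the deleted part of the gene is not analysed here. The study also examined Lyve-1 protein in liver tissue, which is outside the array data. All directions below are those of the arrays labelled Lyve-1-KO relative to the Ctrl arrays. The RNA extraction text of the labels names retina, while title, source and treatment text name LSECs. The mean of 11 LSEC markers other than Lyve1 was high on every array and did not overlap between the groups. It ran from 12.63 to 12.66 under the Lyve-1-KO label and from 12.68 to 12.72 in Ctrl. Cd209b was dimmer than this mean, with 8.43 under the Lyve-1-KO label and 8.78 in Ctrl (log2 fold change -0.35, limma adjusted p = 0.269). Cd209b and Gata4 (-0.10) were the only markers of this list whose groups did not overlap, both downward (8.73% of all genes).

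In resting cells IκB proteins hold NF-κB dimers in the cytoplasm. Signals from the receptors of TNF, interleukin-1 and microbial products activate the IκB kinase, IκB is degraded, and the dimers enter the nucleus and bind kB sites in DNA. Nfkbia, Nfkbie and Tnfaip3 are then transcribed and switch the signal off again, and levels of these transcripts are therefore widely used as a readout of recent NF-κB activity. In LSECs this pathway responds to gut-derived products in portal blood.

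All 9 analysed members had a higher mean level under the Lyve-1-KO label, where 48.9% of all genes did. The median log2 fold change of the 9 was 0.30, against -0.004 over all genes. None passed the threshold over all genes. The members were chosen with earlier results of these data known, so the shares over all genes are given as description and not as a test. At an unadjusted p under 0.05, 6 of the 9 were higher (5.87% of all genes) and 0 were lower (5.33% of all genes). The 3 arrays labelled Lyve-1-KO lay above all 3 Ctrl arrays for 7 of the 9 (8.71% of all genes) and below them for 0 (8.73% of all genes). A log2 fold change of at least 0.3 was found for 5 of the 9 and for 3.58% of all genes. The log2 fold changes ran from 0.06 for Relb to 1.00 for Nfkbiz. Nfkbiz and the feedback enzymes lay above all analysed subunits, while the IκB genes Nfkbia (0.30) and Nfkbie (0.18) lay below the subunit Rel (0.51). The median was 0.12 for the 4 subunits, 0.30 for the 3 IκB proteins and 0.65 for the 2 feedback enzymes. With 3 arrays against 3 the exact two-sided permutation test cannot go below p = 0.1, and this value was reached by each of the 7 genes whose groups did not overlap.

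The promoters of the members are shown because kB sites are the DNA elements that NF-κB binds. RefSeq gave 10 windows (GRCm38.p6, 250 bases before to 50 after an annotated start) for 7 of the 9 members, and none was matched for Relb and Nfkbiz. In the lines below, 5′ to 3′ on the strand of the gene, capitals mark matches of the kB consensus on either strand.
Nfkbia, chr12:55492598-55492897, minus strand: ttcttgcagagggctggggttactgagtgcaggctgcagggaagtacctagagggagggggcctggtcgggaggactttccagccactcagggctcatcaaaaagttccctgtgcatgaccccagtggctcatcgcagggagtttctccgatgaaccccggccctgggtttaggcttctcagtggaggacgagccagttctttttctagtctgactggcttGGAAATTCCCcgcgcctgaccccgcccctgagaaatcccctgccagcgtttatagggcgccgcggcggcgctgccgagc
Tnfaip3, chr10:19015361-19015660, minus strand: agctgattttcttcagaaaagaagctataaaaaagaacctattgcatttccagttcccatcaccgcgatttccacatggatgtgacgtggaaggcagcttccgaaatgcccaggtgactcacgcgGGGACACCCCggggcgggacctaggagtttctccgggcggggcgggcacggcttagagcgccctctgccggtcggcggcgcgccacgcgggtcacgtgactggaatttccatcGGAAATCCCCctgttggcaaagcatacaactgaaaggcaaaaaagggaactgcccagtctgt
Rel, chr11:23770920-23771219, minus strand: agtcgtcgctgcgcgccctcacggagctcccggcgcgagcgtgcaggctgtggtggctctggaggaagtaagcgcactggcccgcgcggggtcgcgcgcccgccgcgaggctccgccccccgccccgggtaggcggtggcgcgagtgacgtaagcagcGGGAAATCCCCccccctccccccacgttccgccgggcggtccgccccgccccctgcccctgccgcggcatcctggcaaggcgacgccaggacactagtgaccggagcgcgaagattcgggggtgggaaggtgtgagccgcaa
Nfkb2, chr19:46304487-46304786, plus strand: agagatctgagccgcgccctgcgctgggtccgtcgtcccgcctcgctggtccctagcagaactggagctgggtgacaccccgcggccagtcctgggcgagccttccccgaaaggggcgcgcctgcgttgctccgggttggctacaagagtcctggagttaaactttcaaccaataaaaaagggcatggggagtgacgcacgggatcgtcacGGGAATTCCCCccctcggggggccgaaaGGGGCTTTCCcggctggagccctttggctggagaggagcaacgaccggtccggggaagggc
Zc3h12a, chr4:125127832-125128131, minus strand: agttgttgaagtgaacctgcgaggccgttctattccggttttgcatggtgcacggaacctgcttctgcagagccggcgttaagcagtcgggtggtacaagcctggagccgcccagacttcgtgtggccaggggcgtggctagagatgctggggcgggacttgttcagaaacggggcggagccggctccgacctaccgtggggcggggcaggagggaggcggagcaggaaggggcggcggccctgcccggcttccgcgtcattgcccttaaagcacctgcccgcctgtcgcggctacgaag

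The kB consensus matched in 7 of these 10 windows and in 5 of the 7 genes (Nfkb2, Rel, Nfkbia, Nfkbie and Tnfaip3). Over all windows of this length 8.46% of 32851 held a match, and 9.55% of 27025 genes had a window with one. The match of Nfkbia, GGAAATTCCC, lies 20 to 29 bases before the annotated start. Rel holds GGGAAATCCC at 83 to 92 bases before the start, and a shifted match on the other strand overlaps it. The window of Tnfaip3 shown above holds GGGACACCCC at 116 to 125 bases and GGAAATCCCC at 3 to 12 bases before the start. Nfkb2 has 3 annotated starts, and the most upstream one is preceded by GGGAATTCCC at 30 to 39 bases and by GGGGCTTTCC at 2 to 11 bases. Another of its matches, GGGACTTTCC, is shared by the other two windows, which overlap. In Nfkbie GGGGGATTCC lies 97 to 106 bases before the start. The windows of Zc3h12a and Rela and another window of Tnfaip3 (chr10:19011914-19012213, not shown) held no match of the consensus. This says only that these letters are not in these windows. A looser pattern, GGGNNNNNCC on either strand, which every consensus match also fits, was present in all 10 windows and in 50.8% of all windows. A match is a description of the sequence and not a measured binding site. The members were picked as NF-κB genes, many of them known targets, so their share of matches says nothing about the cause of their levels, which was not tested.

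Zc3h12a had the smallest p among the members. It encodes Regnase-1, an endoribonuclease that degrades inflammatory transcripts (Entrez gene 230738). Its levels were 7.96, 7.69 and 7.99 in the arrays labelled Lyve-1-KO and 7.22, 7.31 and 7.23 in the Ctrl arrays. All Ctrl values lay close together, and the lowest value under the Lyve-1-KO label was 0.38 above the highest Ctrl value. Means were 7.88 ± 0.16 and 7.25 ± 0.05 (SD, n = 3 arrays each). The difference was 0.62 on the log2 scale or 1.54-fold (standard error 0.09, 95% interval 0.40 to 0.85). The limma p was 2.96e-04 and the adjusted p 0.148.

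Tnfaip3 encodes A20, a ubiquitin-editing enzyme that ends signaling from the TNF receptor to the IκB kinase (Entrez gene 21929). The levels were 9.56, 9.76 and 10.12 under the Lyve-1-KO label and 8.57, 9.32 and 9.52 in Ctrl. The groups were separated by only 0.04, and Ctrl replicate 1 lay well below the other Ctrl arrays. The log2 fold change was 0.67 (standard error 0.26, 95% interval 0.06 to 1.29, limma adjusted p = 0.419). Without Ctrl replicate 1 it was 0.39 (adjusted p = 0.46, and 0.257 to 0.715 over all alternatives), and the unadjusted p was then 0.0646. The unadjusted limma p was 0.0367 with all arrays, 0.0768 with trend and robust variance and 0.117 without Lyve-1-KO replicate 3. With the one-way test of the methods it was 0.113.

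**Figure D1:**
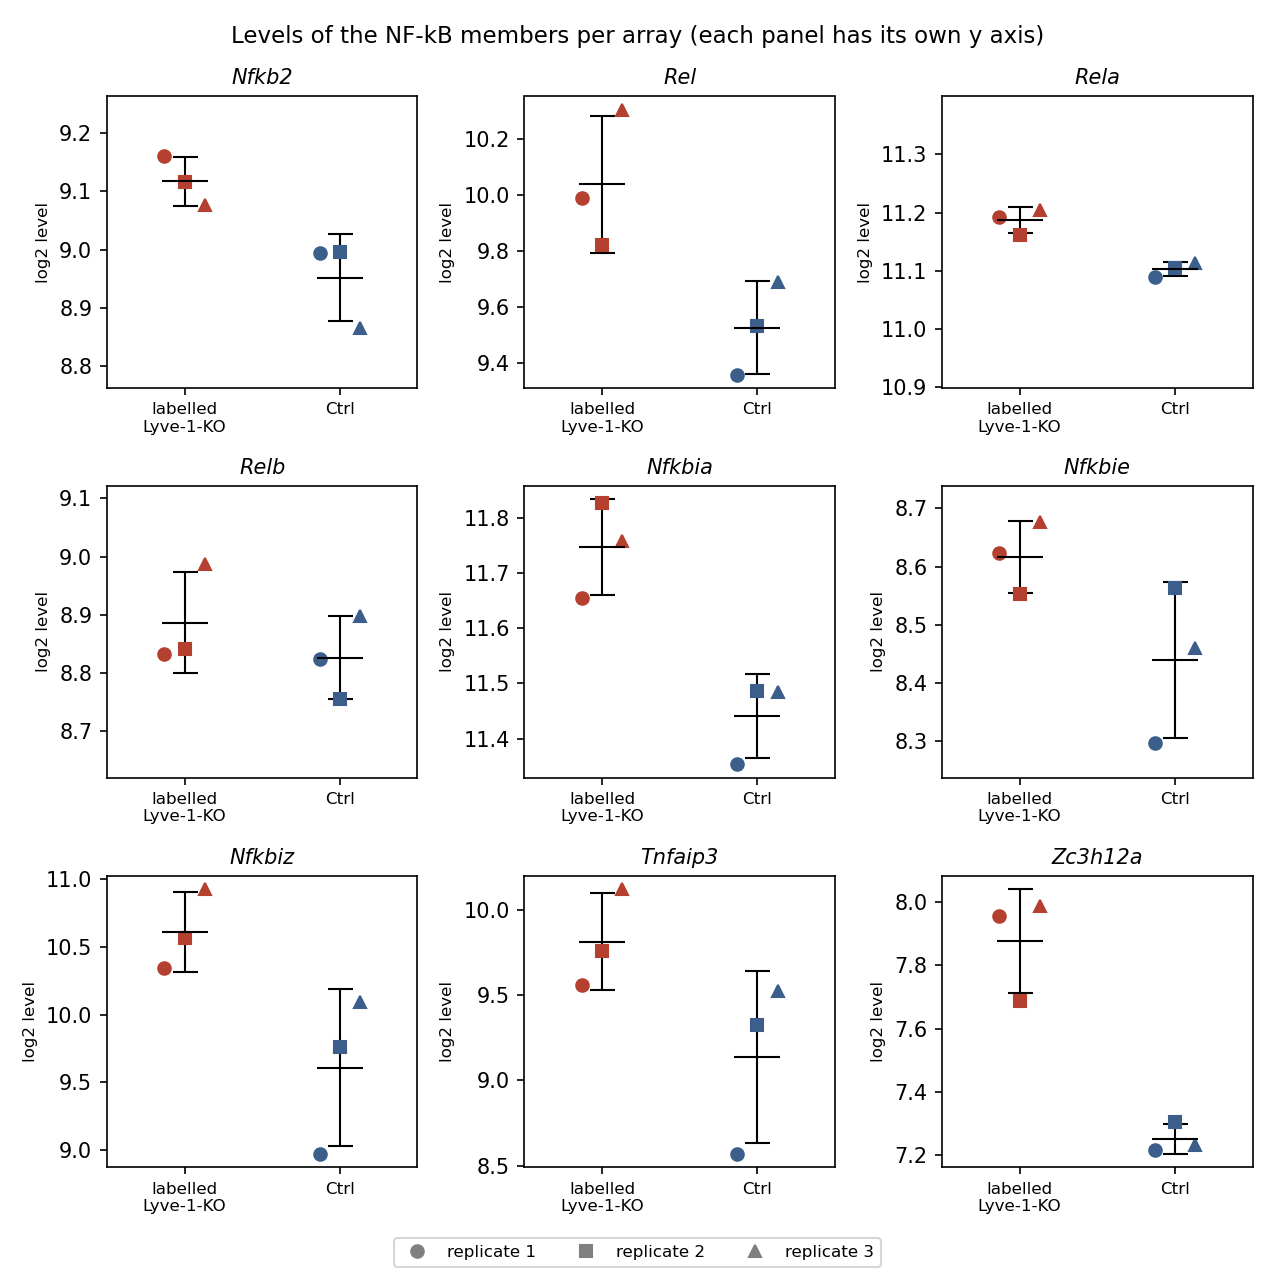
Log2 levels of the 9 analysed members on each array, with the arrays labelled Lyve-1-KO on the left and the Ctrl arrays on the right of each panel. Symbols give the replicate number, and the lines give the mean and SD of 3 arrays. The groups overlap for Relb and Nfkbie and are apart for the other 7 genes.

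Among the IκB proteins, Nfkbiz had the largest difference of all members. It encodes IκBζ, a nuclear IκB protein that helps NF-κB to activate a second wave of target genes rather than holding it in the cytoplasm (Entrez gene 80859). Its levels were 10.34, 10.56 and 10.93 in the arrays labelled Lyve-1-KO and 8.97, 9.76 and 10.10 in the Ctrl arrays. The groups did not overlap, and Ctrl replicate 1 was again the lowest. The log2 fold change of 1.00 corresponds to 2.00-fold, but with a wide 95% interval of 0.31 to 1.69 (standard error 0.29, limma adjusted p = 0.319). Without Ctrl replicate 1 it was 0.68 (adjusted p = 0.325, and 0.214 to 0.614 over all alternatives).

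Nfkbia encodes IκBα, the classical cytoplasmic inhibitor, which is degraded within minutes of a signal and resynthesized by NF-κB (Entrez gene 18035). It had levels of 11.65, 11.83 and 11.76 under the Lyve-1-KO label and of 11.35, 11.49 and 11.48 in Ctrl. The arrays of each group lay close together, and the groups were 0.17 apart. The means were 11.75 ± 0.09 and 11.44 ± 0.08 (SD, n = 3 arrays each). This is a log2 fold change of 0.30 or 1.24-fold (standard error 0.07, 95% interval 0.13 to 0.48, limma adjusted p = 0.263). Leaving out single arrays moved it only between 0.26 and 0.35.

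Nfkbie encodes IκBε, an inhibitor that acts later than IκBα (Entrez gene 18037). Its levels were 8.62, 8.55 and 8.68 in the arrays labelled Lyve-1-KO and 8.30, 8.56 and 8.46 in the Ctrl arrays. Here the groups overlapped, since Ctrl replicate 2 lay just above Lyve-1-KO replicate 2. The log2 fold change was 0.18 with a 95% interval of -0.02 to 0.38 (limma adjusted p = 0.489), and it was 0.11 without Ctrl replicate 1.

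**Figure D2:**
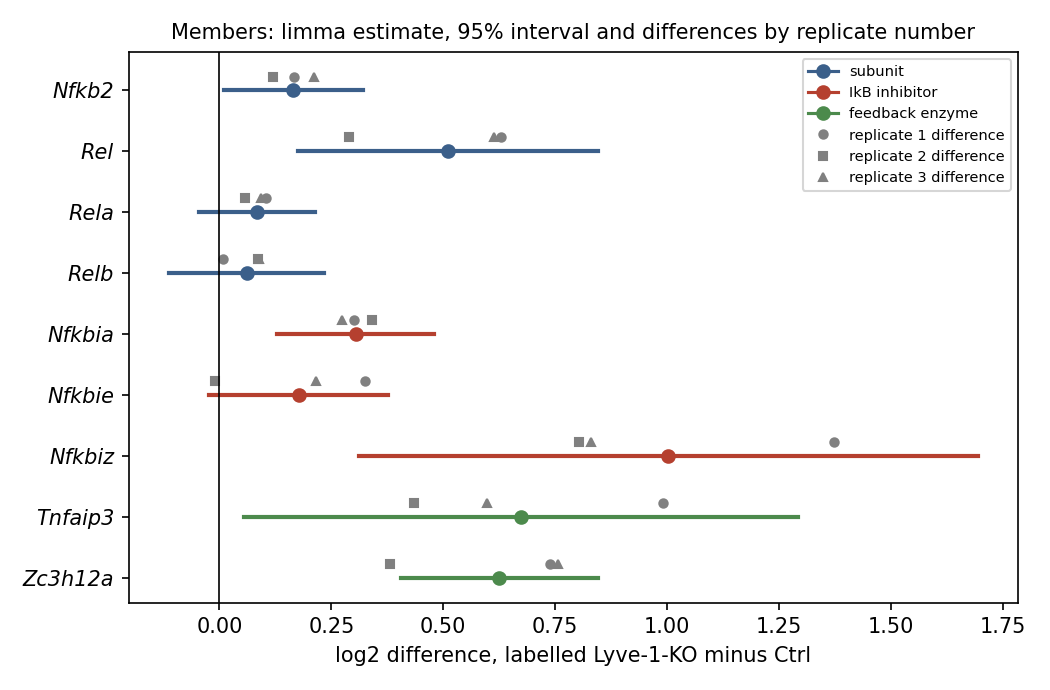
Log2 difference of the arrays labelled Lyve-1-KO minus Ctrl for each member, coloured by role. Circles with lines give the limma estimate and its 95% interval, and grey symbols give the difference between the arrays of each replicate number. The intervals of Rela, Relb and Nfkbie include 0, and Nfkbie is the only gene with a grey symbol below 0 (-0.01, replicate 2).

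The subunits differed among themselves. Rel encodes c-Rel, the inducible subunit of the classical pathway (Entrez gene 19696). It had levels of 9.99, 9.82 and 10.30 in the arrays labelled Lyve-1-KO and of 9.36, 9.53 and 9.69 in Ctrl, with a gap of 0.13 between the groups. The log2 fold change was 0.51 or 1.42-fold (standard error 0.14, 95% interval 0.18 to 0.85, limma adjusted p = 0.295). Nfkb2 encodes p100, which is processed to p52 in the alternative pathway and otherwise acts as an inhibitor (Entrez gene 18034). With levels of 9.160, 9.115 and 9.076 under the Lyve-1-KO label and of 8.994, 8.996 and 8.865 in Ctrl, its groups did not overlap either. The log2 fold change of Nfkb2 was 0.17 (standard error 0.07, 95% interval 0.01 to 0.32, limma adjusted p = 0.427).

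Rela encodes p65, the constitutive activating subunit (Entrez gene 19697). Its levels of 11.19, 11.16 and 11.21 under the Lyve-1-KO label lay above the Ctrl levels of 11.09, 11.11 and 11.11. The groups were apart, but the log2 fold change was only 0.08 (95% interval -0.05 to 0.21, limma adjusted p = 0.607). Relb encodes the partner of p52 in the alternative pathway (Entrez gene 19698). It had levels of 8.83, 8.84 and 8.99 under the Lyve-1-KO label and of 8.82, 8.76 and 8.90 in Ctrl, and the groups overlapped. The log2 fold change was 0.06 (95% interval -0.11 to 0.23, limma adjusted p = 0.8), and it was 0.01 without Lyve-1-KO replicate 3.

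Arrays with the same replicate number were also set against each other. In replicate 1 and in replicate 3 all 9 members were higher under the Lyve-1-KO label, with median differences of 0.33 and 0.27. In replicate 2 this held for 8 of 9, with a median of 0.29. Over the 9 genes, Lyve-1-KO replicate 3 had the highest value for 7 and Ctrl replicate 1 the lowest value for 7. The other arrays of each group lay between them. The mean of the 9 log2 differences was 0.40 with all arrays. It was 0.31 when Ctrl replicate 1 was left out and 0.34 when Lyve-1-KO replicate 3 was.

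The other genes of the pathway were read by their place in it. Of 70 measured genes, 41 had values above 0, with a median log2 fold change of 0.05. An unadjusted p under 0.05 was reached by 12 of them, 10 in the upward direction (5.87% of all genes) and 2 in the downward direction (5.33% of all genes), and by none after adjustment over all genes. Without Lyve-1-KO replicate 3 the 10 were 6, and the median was 0.01. The median was 0.03 without Ctrl replicate 1. The 12 receptors had a median of -0.04 and 0 at an unadjusted p under 0.05. Tlr2, a receptor of bacterial lipoproteins, had a value of 0.16, the lymphotoxin receptor Ltbr of -0.12 and the interleukin-1 receptor Il1r1 of -0.23. The 9 ligands had a median of -0.002. Among them the interleukin Il1a had 12.22, 12.23 and 12.33 under the Lyve-1-KO label and 11.84, 11.99 and 11.89 in Ctrl (log2 fold change 0.35, limma adjusted p = 0.21). Tnf itself had 8.02, 8.21 and 8.71 under the Lyve-1-KO label and 6.73, 8.05 and 8.05 in Ctrl. These groups overlapped (log2 fold change 0.70, 95% interval -0.19 to 1.60, adjusted p = 0.532). Lta, the lymphotoxin alpha gene, had -0.35 at a dim signal, with 4.07 ± 0.12 under the Lyve-1-KO label and 4.43 ± 0.14 in Ctrl (SD, n = 3 arrays each).

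Adaptors and kinases carry the signal to IκB. Of 13 adaptors, Irak2, a kinase of the interleukin-1 and Toll-like receptor complex, had a log2 fold change of 0.25, Malt1 of 0.15 and Irak1 of 0.13, and the median was 0.03. Among 11 kinases and their partners, 10 had values above 0 (median 0.10), and the groups did not overlap for 6, all upward (8.71% of all genes). Map3k8, a kinase that links the IκB kinase to the ERK pathway and is held by p105, had the largest value of the kinases. Its levels were 9.55, 9.73 and 9.87 under the Lyve-1-KO label and 9.05, 9.35 and 9.13 in Ctrl (log2 fold change 0.54, limma adjusted p = 0.218). Tank and Tab3, partners of the kinases Tbk1 and Map3k7, had values of 0.17 and 0.23. Ubiquitin ligases act on several steps, and of 8 such enzymes and their partners 5 had values above 0 and 3 below (median 0.09). Rnf31, the catalytic subunit of the linear ubiquitin ligase, had a log2 fold change of 0.32, and Btrc, which marks phosphorylated IκB for degradation, of 0.28. Birc3, a ubiquitin ligase that is also an NF-κB target, had 0.28. These 3 were higher at an unadjusted p under 0.05 (5.87% of all genes), and their limma adjusted p were 0.209, 0.236 and 0.312. Sharpin and Rbck1, the partners of Rnf31, had values of -0.11 and -0.03, and Fbxw11, a relative of Btrc, of -0.06, all with overlapping groups.

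Inhibitors outside the list did not share one direction. Nfkbid, which encodes the nuclear protein IκBNS and is related to Nfkbiz, had 8.79, 8.70 and 9.09 under the Lyve-1-KO label and 7.41, 8.35 and 8.21 in Ctrl. The groups did not overlap (log2 fold change 0.87, limma adjusted p = 0.312). Its relatives Nfkbib and Bcl3 had values of 0.11 and 0.09. Of 14 further brakes 6 had values above 0 and 8 below, with a median of -0.02. Tnip1, a partner of A20, had 0.17 and the NF-κB inhibitor Commd1 had -0.31, both at an unadjusted p under 0.05 (adjusted p = 0.377 and 0.324). Nkiras2, which encodes κB-Ras, had -0.14. Zc3h12b, Zc3h12c and Zc3h12d, the relatives of Zc3h12a, had -0.20, -0.01 and -0.14, and none of the 3 had an unadjusted p under 0.05.

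**Figure D3:**
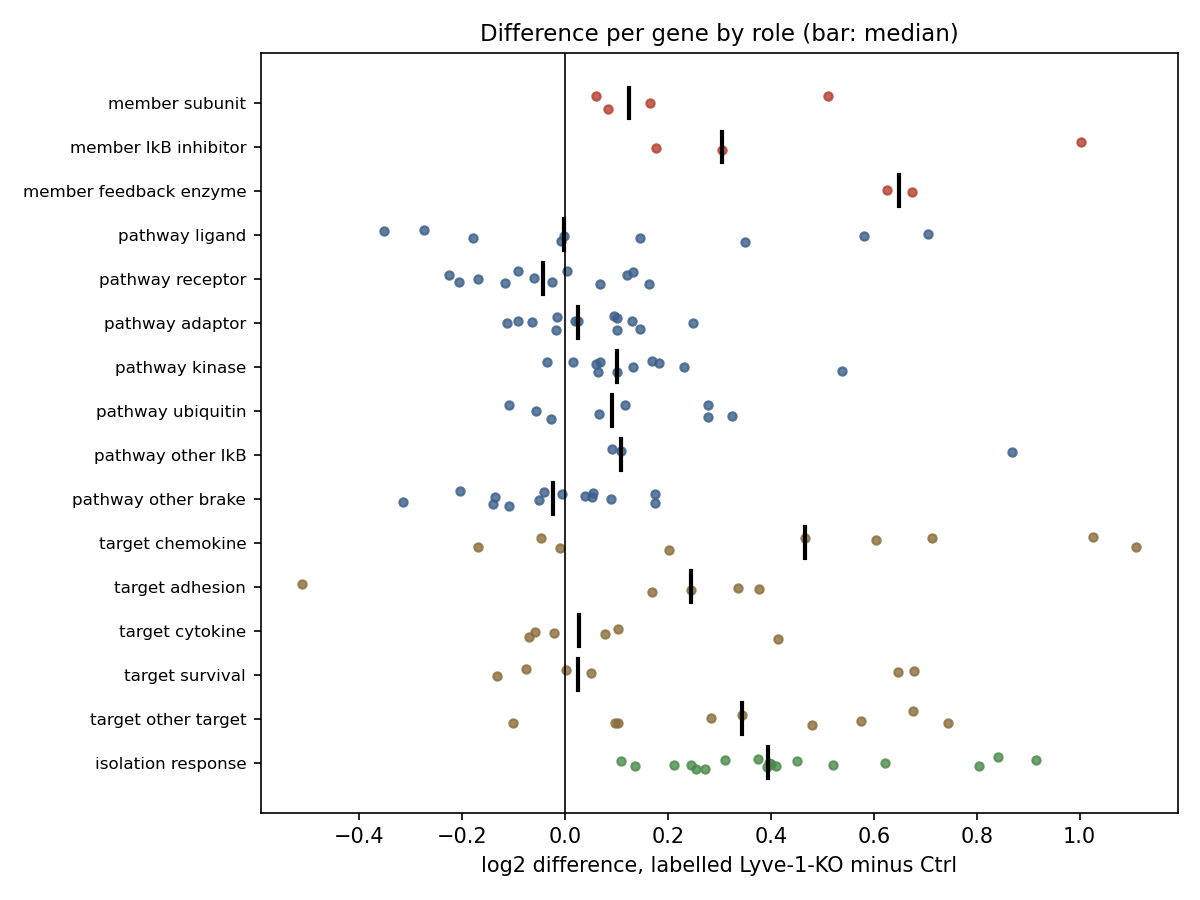
Log2 difference of the arrays labelled Lyve-1-KO minus Ctrl for each measured gene, by role. Each dot is a gene and each bar the median of its role. The medians of receptors (-0.04) and other brakes (-0.02) lie near 0, while those of the feedback enzymes (0.65) and the chemokine targets (0.47) lie to the right.

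Of 35 measured genes that NF-κB is known to induce, 25 had values above 0, and the median log2 fold change was 0.20. This median rested in part on single arrays, since it was 0.09 when Lyve-1-KO replicate 3 was left out and 0.10 when Ctrl replicate 1 was. In the upward direction 5 had an unadjusted p under 0.05 (5.87% of all genes), in the downward direction 0 (5.33% of all genes), and after adjustment over all genes none did. Among chemokines, Cxcl10 had 11.77, 12.03 and 12.08 under the Lyve-1-KO label and 10.42, 11.09 and 11.29 in Ctrl (log2 fold change 1.03, limma adjusted p = 0.232). Cxcl1, which attracts neutrophils, had a value of 0.60 (adjusted p = 0.263) and Cxcl5 of -0.17 at a dim signal. The adhesion molecule Icam1 had 10.75, 10.83 and 10.99 under the Lyve-1-KO label and 10.34, 10.44 and 10.67 in Ctrl (log2 fold change 0.38, adjusted p = 0.312). Vcam1 had a value of 0.24, while Selp had -0.51 with overlapping groups. The stress gene Ier3 had a value of 0.68 (adjusted p = 0.165) and the transcription factor Irf1 of 0.57 (adjusted p = 0.283). Gadd45b had 10.457, 10.734 and 10.863 under the Lyve-1-KO label and 9.385, 10.279 and 10.451 in Ctrl. Its groups lay close but did not overlap (log2 fold change 0.65, adjusted p = 0.449). In contrast, Sod2, Cflar and Bcl2l1, which protect cells from death, had values of 0.003, -0.08 and -0.13. The 6 cytokine targets had a median of 0.03.

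Regnase-1 degrades a known set of transcripts, among them its own. Of 10 such transcripts, 8 had values above 0 and 4 were higher at an unadjusted p under 0.05 (5.87% of all genes). Of these 4, Zc3h12a, Rel and Nfkbiz are members, and the fourth is Icos, a T cell costimulator, with 6.92, 7.28 and 6.92 under the Lyve-1-KO label and 6.55, 6.88 and 6.57 in Ctrl (log2 fold change 0.38, limma adjusted p = 0.387). Il6 had a value of 0.41 with overlapping groups, and Il12b of -0.13.

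The genes most like Zc3h12a over the 6 arrays, by the root mean square difference of levels centred on each gene's mean, were Syne1 (0.06), Mir1898 (0.06) and Mir467e (0.07). Those most like Nfkbia were Denn2b (0.03), Morrbid (0.04) and Rcan1 (0.04). Their log2 fold changes were 0.51, 0.67 and 0.50 for the genes near Zc3h12a and 0.27, 0.25 and 0.25 for those near Nfkbia. Since the genes were picked by their levels on these same arrays, fold changes close to those of the members follow from the choice.

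Immediate early and heat shock genes, which tissue digestion is known to induce, ranked the 6 arrays in the same order as the members did by their mean level. The shared order rests in part on a near tie, since the members had means of 9.701 and 9.703 in Lyve-1-KO replicates 1 and 2. Of 18 immediate early and heat shock genes, 18 had values above 0, and 15 were higher at an unadjusted p under 0.05 (5.87% of all genes). The median log2 fold change was 0.39. None had a limma adjusted p under 0.05. The count of 15 was 9 without Lyve-1-KO replicate 2, 7 without Lyve-1-KO replicate 3, 10 without Ctrl replicate 1 or 2 and 5 with the one-way test of the methods. The median was 0.26 without Ctrl replicate 1. Their mean level was 11.62, 11.79 and 11.92 under the Lyve-1-KO label and 11.10, 11.41 and 11.55 in Ctrl, so the groups did not overlap. As for the members, Lyve-1-KO replicate 3 was the highest and Ctrl replicate 1 the lowest. The smallest p belonged to Dnajb1, Hspa1b, Btg2 and Jund, with log2 fold changes of 0.31, 0.25, 0.52 and 0.40. Whether the handling of the cells has a part in the levels of the members was not tested.

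Markers of other liver cells were read beside the members, since immune cells also express these genes. In pooled cells, more cells of a type and more RNA per cell cannot be told apart. The mean of 11 macrophage markers was 8.77 to 9.83 under the Lyve-1-KO label and 7.61 to 9.74 in Ctrl, and 11 of 11 had values above 0 (median log2 fold change 0.44). The lowest mean was that of Ctrl replicate 1. C1qb, Cd68, Clec4f and Cd5l, the most abundant of them, had values of 0.44, 0.66, 0.68 and 0.55. Marco, a scavenger receptor, had the largest value of the list, with 8.71, 9.70 and 10.99 under the Lyve-1-KO label and 6.33, 8.66 and 7.67 in Ctrl. It was the only 1 of the 11 whose groups did not overlap (upward for 8.71% of all genes). Its log2 fold change was 2.24 (limma adjusted p = 0.355), and its difference was 1.63 without Ctrl replicate 1. The mean difference of the whole list was -0.01 when Ctrl replicate 1 was left out and 0.35 when Lyve-1-KO replicate 3 was. With Ctrl replicate 1 left out, 2 of the 10 markers other than Marco had values above 0 and 8 below. The mean difference of the 9 members was 0.31 without Ctrl replicate 1. In replicate 2 the mean difference was -0.21 for the macrophage markers and 0.28 for the members. The part of macrophages in the levels of the members was not tested.

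Neutrophil markers had means of 5.08 to 6.56 under the Lyve-1-KO label and of 5.05 to 5.29 in Ctrl. S100a8, S100a9 and Cxcr2 had log2 fold changes of 1.23, 1.32 and 0.98. Ly6g, Mpo and Camp had 0.25, 0.06 and 0.04, and the groups overlapped for each of these markers. In this list Lyve-1-KO replicate 3 was the highest and Lyve-1-KO replicate 2 lay within the Ctrl range. The mean difference was 0.65, and 0.26 without Lyve-1-KO replicate 3. Hepatocyte markers differed by 0.03 and stellate cell markers by 0.05 on average, with overlapping groups in both lists. These values depended on single arrays. Without Ctrl replicate 1 they were -0.27 and -0.06, while they were 0.20 and 0.09 without Lyve-1-KO replicate 3. Lists of T or NK cells (0.13), monocytes or dendritic cells (-0.06) and B cells (-0.59) overlapped between the groups as well. Without Ctrl replicate 1 these differences were -0.01, -0.19 and -0.87. The part of these cells in the levels of the members was not tested.

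**Figure D4:**
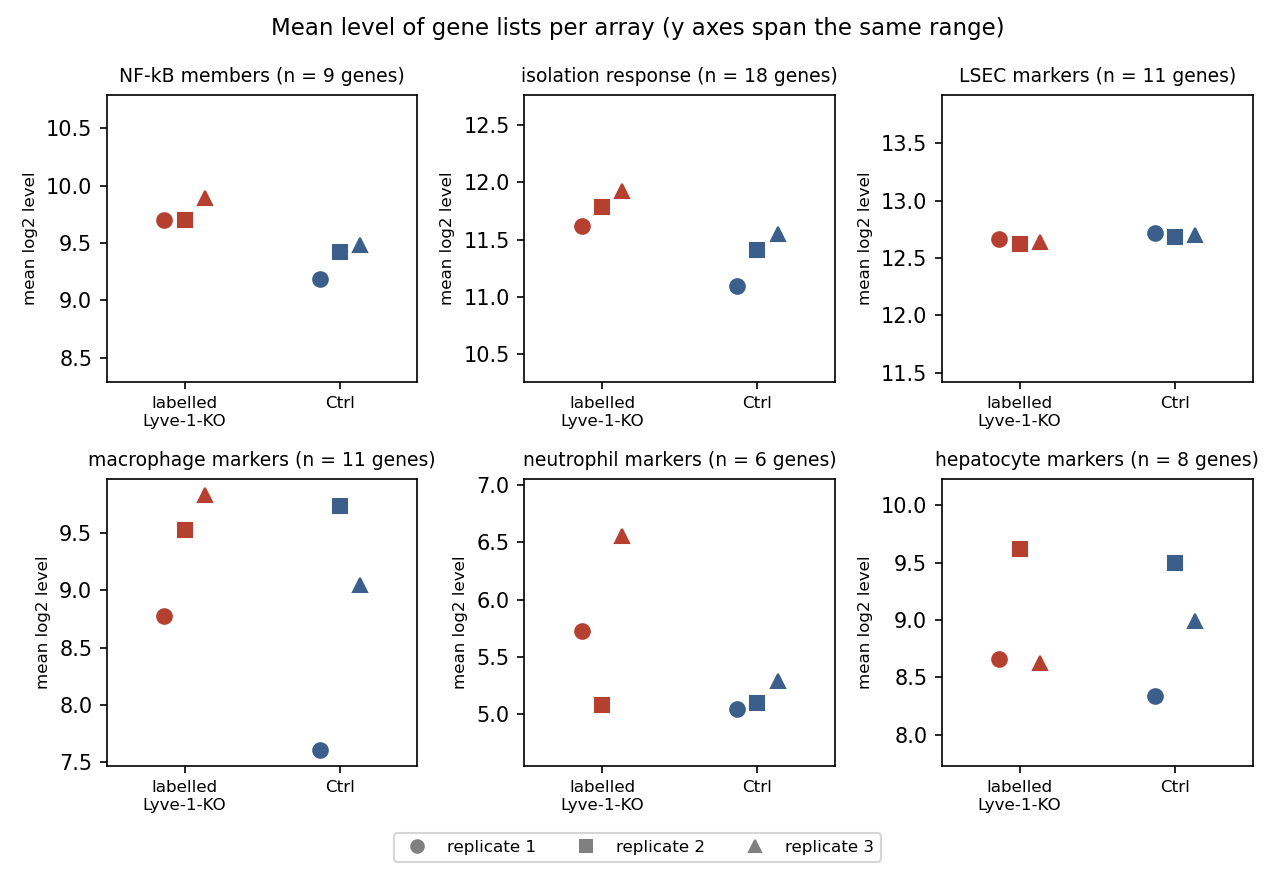
Mean log2 level per array of the members, the isolation response genes and 4 marker lists, with the arrays labelled Lyve-1-KO on the left of each panel. Symbols give the replicate number, and the y axes span equal ranges. The members and the isolation response do not overlap between the groups, whereas macrophage, neutrophil and hepatocyte markers do.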

How the data were processed

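LSECs of 3 Lyve-1-KO and 3 Ctrl pools were measured on Affymetrix MoGene-2_0-st arrays. The authors summarized probes per Entrez gene, through a custom chip definition, after quantile normalization. The deposited values are read as log2 levels from their range, and the submitters' processing notes list RMA. No background or detection calls were used, and the 3 arrays per group limit the precision. Of 24479 genes, 23281 carry a symbol in the platform annotation. Nfkb1 and the 9 other listed genes without one were not analysed here.

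Genes were compared with limma 3.58.1 in R 4.3.3 (lmFit, eBayes, Benjamini-Hochberg), in place of the one-way test named in the methods, which was run as an alternative (the methods' test). Single values were compared by exact two-sided permutation tests. The members, the gene lists and the rule for named genes were chosen with earlier results of these data known. That rule took all members, up to 3 genes per role of the pathway and target lists and up to 4 of the others by smallest p, and the 4 most abundant markers of a cell type. Zc3h12b, Zc3h12c, Zc3h12d, Il12b, Sod2, Cflar, Sharpin, Rbck1, Fbxw11, Marco, Ly6g, Camp, Cd209b and Gata4 are outside it and were chosen after their values were seen.

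The labels number the pools. After removal of group means, same-numbered pools correlated across genes at 0.206, 0.134 and 0.124, and others at -0.218 to 0.0432, so the numbers were taken as pairs, from the data alone. These pairs enter the replicate differences and the fit with the replicate block, but not the main fit. Nothing else in the labels states a pairing. In a test on simulated arrays of 24479 genes, the share of changed genes that limma found was 41.8% at a log2 change of 0.5, 77.6% at 1 and 95.5% at 2, with 8 false calls. For the same changes the fit with the replicate block found 0%, 56.7% and 92.4%. The simulated arrays held no replicate effect, unlike the real ones, so the block could only lose there and these shares do not rank it against the main fit. The methods' test found 28.4%, 43.3% and 86.4%. Promoter windows are from RefSeq (GRCm38.p6). A planned comparison of protein sequences was not made.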

Additional observations from a re-analysis of the deposited data

How the results depend on the processing

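No member passed the threshold in any of the 13 alternatives, where the lowest limma adjusted p of a member was 0.0597 (Zc3h12a, trend and robust variance). All 9 members kept values above 0 in all 13. Their median log2 fold change was 0.28 to 0.32 under the 7 alternatives that kept all arrays and 0.26 to 0.35 when single arrays were left out. The count of members higher at an unadjusted p under 0.05 was 5 to 6 (4.72% to 6.99% of all genes) and 4 to 6 (4.14% to 6.38%). The genes behind this count were not always the same. With the methods' test Nfkbiz (unadjusted p = 0.0553) and Tnfaip3 (0.113) left it, and Rela (0.00448) entered it. All 9 members were kept by a filter on dim genes at the 40th percentile of the mean level. The count of genes past the threshold was 1. It was 0 with the replicate block, 2 when arrays were centred on LSEC markers, 49 with trend and robust variance, 0 with the methods' test, and 0 to 2 when single arrays were left out. The genes at an unadjusted p under 0.05 were 2741 without the block, 2757 with the block and 2473 with the methods' test. The block changed no other call at the adjusted threshold, and at the unadjusted one it left 5 members (5.78% of all genes), with Nfkb2 at 0.0545. With the block the unadjusted limma p fell for Nfkbiz (0.0112 to 5.62e-04), Tnfaip3 (0.0367 to 0.00235), Rel (0.00882 to 0.00269) and Relb (0.434 to 0.404). It rose for Zc3h12a (2.96e-04 to 0.00137), Nfkbia (0.00466 to 0.00525), Nfkbie (0.0748 to 0.102), Rela (0.17 to 0.253) and Nfkb2. The standard errors and intervals given for the members come from the fit without the block. Target genes higher at an unadjusted p under 0.05 were 5, and 8, 8 and 9 without Lyve-1-KO replicate 1, Lyve-1-KO replicate 2 or Ctrl replicate 3. The cause was not tested. Signal over background cannot be judged from the deposited levels.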
